A study of Mus musculus with 6 samples.

Results

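The genes described here carry a cell through mitosis: cyclins and kinases that drive entry, the spindle checkpoint, the kinetochore, the spindle, the condensin complex and the machinery of cytokinesis. The 47 genes were listed by symbol, and a gene was taken as measured where a probe on the array was paired with its name. That held for 36 of the 47, out of 37939 genes and unnamed probes measured in all, and the probe with the highest mean Cy3 signal stood for each gene. Aurka, Aurkb, Pttg1, Espl1, Cenpf, Kif11, Smc2, Smc4, Top2a, Mki67 and Kif23 were not analysed here, so the Aurora kinases and the widely used proliferation marker Mki67 are missing from all counts.

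RNA came from crypts of the middle small intestine, cut by laser microdissection from frozen sections of 6 C57BL/6 mice aged 120 days, with many crypts pooled per mouse. The 3 LOI(+) mice had inherited from their mother a deletion of H19 and the differentially methylated region upstream of it, which per the series' design activates the normally silent maternal Igf2 allele (loss of imprinting, LOI). The 3 LOI(-) mice were wild type and came from the same kind of cross, between H19+/- females and wild-type males. The deletion removes H19 itself along with the imprinting of Igf2 and is carried in all cells of the mouse, so the model does not limit the change to the crypt. Each mouse had 1 two-colour array, with crypt RNA in Cy3 and Universal Mouse Reference RNA in Cy5, which pools RNA of many cell lines grown in culture.

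In the crypt, stem cells and their transit-amplifying daughters divide constantly and supply the cells that move up onto the villus. Most mitotic genes are switched on together late in the cycle: cyclin B with CDK1 starts mitosis, kinetochores attach chromosomes to spindle microtubules, and the checkpoint holds back the anaphase-promoting complex until every chromosome is attached. Condensin compacts the chromosomes, and a contractile ring then divides the cell. Most of these transcripts, though not all, are therefore abundant mainly in cycling cells. In RNA from whole crypts, fewer cells in mitosis and less RNA per mitotic cell cannot be told apart.

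Mitotic genes share promoter motifs, and those of the measured genes were read from RefSeq sequences (GRCm38.p6) that run from 250 bases before to 50 bases after a gene's start. Promoters were found for 30 of the 36 genes, 33 promoters in all. The cell cycle homology region, TTTGAA on either strand, is known for periodic expression late in the cycle, and the CCAAT box, CCAAT on either strand, as the site of the factor NF-Y. The letters of both motifs can share at most 1 base. TTTGAA was present in 22 of the 33 promoters (66.7%), against 17.9% of all 32851 promoters of that length. CCAAT was present in 25 of the 33 (75.8%), against 37.4% of all promoters. Both were present in 19 of the 33 (57.6%), against 6.95% of all promoters, so most of these promoters hold the letters of both motifs. A match is a description of the letters and not of binding.

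The 120 bases just before the start are shown for 3 genes whose windows hold both motifs and that act at entry into mitosis (Cdk1) and at its exit (Cdc20 and Ube2c). They read 5′ to 3′ on the gene's strand, with both motifs in capitals. ATTGG and TTCAAA are the motifs on the opposite strand.
Cdk1, minus strand, chr10:69352913-69353032: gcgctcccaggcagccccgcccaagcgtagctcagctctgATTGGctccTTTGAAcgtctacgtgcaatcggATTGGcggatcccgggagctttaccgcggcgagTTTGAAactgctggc
Cdc20, minus strand, chr4:118437344-118437463: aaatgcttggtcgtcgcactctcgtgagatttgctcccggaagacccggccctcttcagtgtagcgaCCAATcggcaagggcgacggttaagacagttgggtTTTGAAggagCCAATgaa
Ube2c, plus strand, chr2:164769809-164769928: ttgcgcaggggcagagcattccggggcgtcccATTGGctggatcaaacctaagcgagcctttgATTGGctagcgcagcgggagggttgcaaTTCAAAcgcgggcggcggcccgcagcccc
The Cdk1 window holds TTTGAA at 2 places and the Cdc20 and Ube2c windows at 1 each. The promoters of Birc5 and Nuf2, both described among the kinetochore genes, hold the letters of neither motif. Tpx2, Haus1 and Stmn1 had no promoter in the table.

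The dissected tissue carried its defining markers. All 11 measured markers of intestinal epithelium lay above the negative controls on all 6 arrays, and their median log2 ratio to the reference was 2.57 in LOI(-) and 2.55 in LOI(+). Gene by gene, 10 of the 11 were lower in LOI(+), with a median difference of -0.12, 2 of them at an unadjusted p under 0.05 (Krt8, a keratin, and Cdx1, an intestinal transcription factor). Median Cy3 signals per array were 552 to 602.7, and negative controls had a 95th percentile of 439.2 to 448.7. Every one of the 36 mitosis genes lay above that percentile on all arrays and none was saturated. On each array 94% to 95.7% of all features other than controls lay above it. Lying above the controls therefore sets neither these genes nor the epithelial markers apart. Across genes, pairs of arrays had r of 0.932 to 0.975. Values below are log2 of Cy3 over Cy5 after normalization within each array, differences are LOI(+) minus LOI(-) with their standard error (SE), and p-values are two-sided from limma.

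Against the reference, most mitosis genes were low in the crypts of both groups. Of the 36 genes, 26 lay below the reference on all 6 arrays (30.1% of all genes and unnamed probes did), and 2 lay above it on all 6 (29.3% did). The median log2 ratio was -0.54 in LOI(-) and -0.41 in LOI(+), against 0.00 in each group over all genes and unnamed probes. Normalization within each array sets that 0.00. The 2 genes above the reference were Ccna2, the cyclin of S and G2 phase, and Ube2c, the ubiquitin-conjugating enzyme of the anaphase-promoting complex. For Ccna2 this depended on the probe. A dimmer Ccna2 probe lay below the reference on all 6 arrays, with a mean ratio of -0.87 against 0.41 for the brightest. The dimmer Ube2c probe had a mean ratio of 0.29, against 0.33 for the brightest. Cks1b, a small adaptor of cyclin-dependent kinases, had the lowest ratios, between -2.40 and -1.93. The reference is a pool of cycling cell lines in the other dye, and dyes were not swapped, so a ratio also contains the dye effect of its probe. Its size depended on the correction: the median over both groups was -0.49, and it was -0.30 with no background correction and -0.77 with median centring in place of loess.

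Between the groups, 34 of the 36 genes had a higher mean in LOI(+) crypts, while 51.2% of all genes and unnamed probes did. The median difference was 0.18, a fold of 1.13, against 0.0027 over all genes and unnamed probes, which the normalization holds near 0. None of the 36 differed at an adjusted p of 0.05 in limma (0% of all genes and unnamed probes did), and their adjusted p-values ran from 0.801 to 0.985. At an unadjusted p under 0.05 there were 6, all higher in LOI(+), namely Haus1, Tpx2, Stmn1, Nuf2, Birc5 and Ube2c, to be read against 6.15% of all genes and unnamed probes at that p, 3.92% higher and 2.23% lower. Only 2 of the 36, Haus1 and Tpx2, had groups that did not overlap, both higher, against 6.42% of all. The genes were chosen with earlier results of these data known, so these counts describe the list and are not a test of it.

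The count of 6 moved with single mice. It was 2 without LOI(-) 1, LOI(-) 2 or LOI(+) 3, 3 without LOI(+) 2, and 14 without LOI(-) 3 or LOI(+) 1. With all mice, 2333 of 37939 genes and unnamed probes had an unadjusted p under 0.05. Leaving out LOI(-) 1, LOI(-) 2 or LOI(+) 3 gave 2096, 1822 or 2255 of them. Leaving out LOI(+) 2 gave 1496, LOI(-) 3 gave 2403 and LOI(+) 1 gave 3348. The median difference was 0.12 without LOI(-) 2, 0.11 without LOI(+) 3 and 0.28 without LOI(-) 3, and it was 0.094 with no background correction. It stayed above 0 in every alternative run. By role, the lowest medians without a mouse were 0.065 (condensin) and 0.11 (spindle) without LOI(-) 1, 0.13 (checkpoint) without LOI(-) 2, and 0.095 (cyclins and kinases), 0.072 (cytokinesis) and 0.14 (kinetochore) without LOI(+) 3. The highest were 0.16 (condensin), 0.30 (cytokinesis) and 0.29 (spindle) without LOI(-) 3, and 0.31 (checkpoint), 0.28 (cyclins and kinases) and 0.32 (kinetochore) without LOI(+) 1.

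**Figure D1:**
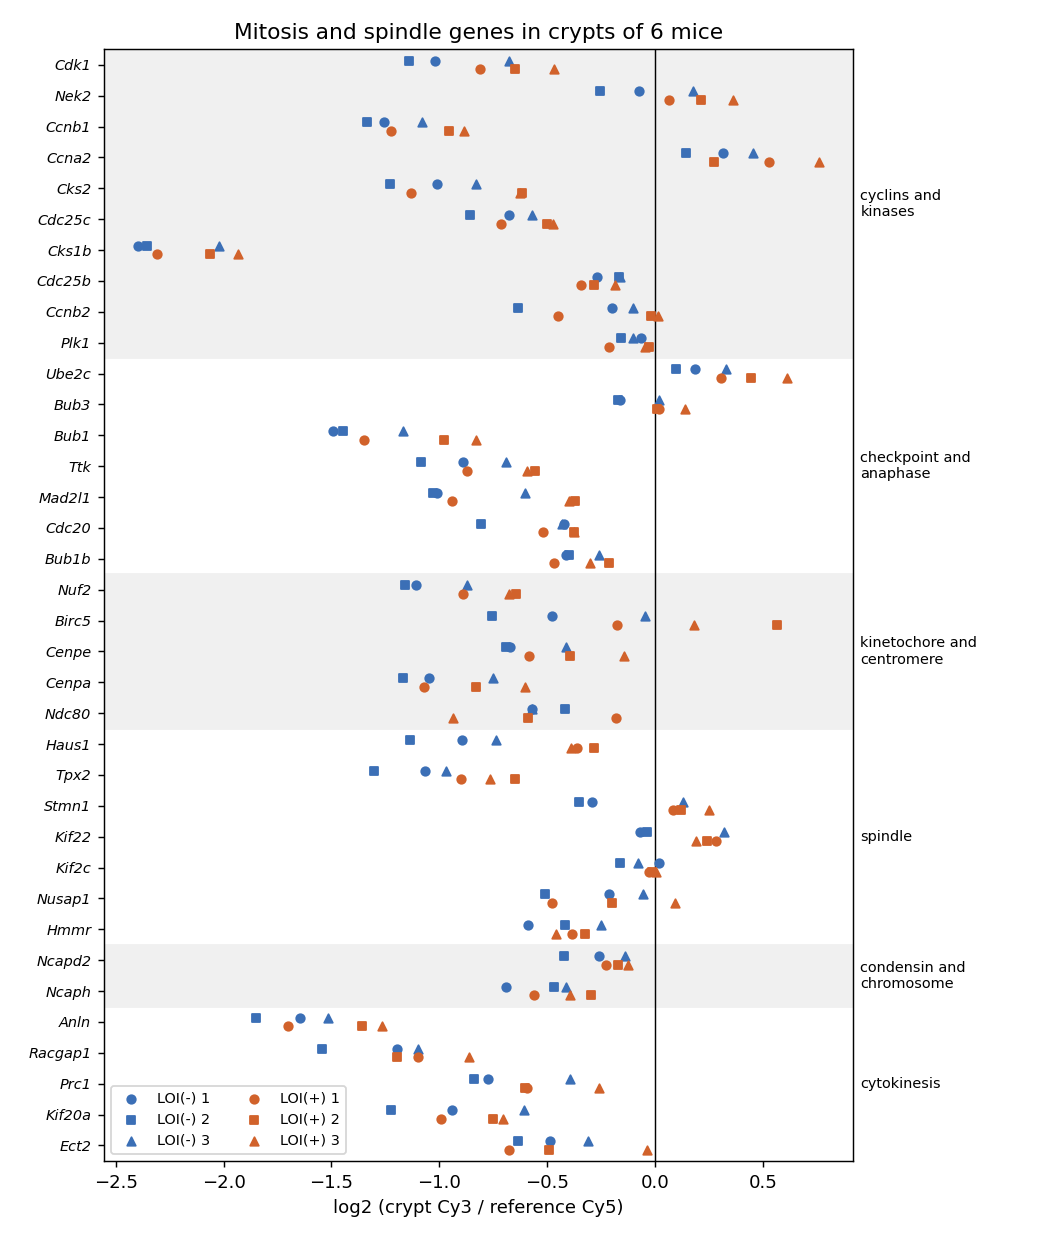
Log2 ratio of crypt Cy3 to reference Cy5 (x axis) for each of the 36 mitosis and spindle genes (rows, grouped by role), with 1 point per mouse, LOI(-) in blue and LOI(+) in orange. Most points lie left of 0, and the colours overlap in all rows but Haus1 and Tpx2.

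Among cyclins and kinases, 9 of the 10 measured genes had a higher mean in LOI(+), with a median difference of 0.18, and none reached an unadjusted p of 0.05. Cdk1, the kinase that drives entry into mitosis, had log2 ratios of -1.02, -1.14 and -0.68 in LOI(-) and -0.81, -0.65 and -0.47 in LOI(+). Its groups overlapped because LOI(-) 3 lay above LOI(+) 1. The difference of Cdk1 was 0.30 ± 0.14 (SE), with a 95% interval from -0.023 to 0.63. Ccnb1, cyclin B1, the partner of CDK1, was at -1.26, -1.33 and -1.08 in LOI(-) and at -1.23, -0.95 and -0.88 in LOI(+). Its lowest LOI(+) mouse lay between LOI(-) 1 and LOI(-) 3, and the difference was 0.20 ± 0.11.

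Nek2, a centrosomal kinase that separates the centrosomes, was at -0.073, -0.26 and 0.17 in LOI(-) and at 0.066, 0.21 and 0.36 in LOI(+), a difference of 0.26 ± 0.12. Again LOI(-) 3 alone reached into the range of the LOI(+) mice. Plk1, the polo-like kinase that acts from entry to cytokinesis, was at -0.064, -0.16 and -0.10 in LOI(-) and at -0.21, -0.028 and -0.048 in LOI(+). Its difference was 0.011 ± 0.070, with a 95% interval from -0.15 to 0.18. The Plk1 probe had a Cy3 signal of only 444.2 to 457.1, next to the negative controls, and the sign of its difference changed under 5 alternatives and when some mice were left out.

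The other 6 genes of this group differed by -0.070 to 0.23. Cdc25b, a phosphatase that activates CDK1, was lower in LOI(+) at -0.070 ± 0.066, whereas Cdc25c, a phosphatase of the same family, was at 0.14 ± 0.099. Ccna2, with the second highest Cy3 signal of all 36 genes, was at 0.32, 0.14 and 0.45 in LOI(-) and at 0.53, 0.27 and 0.76 in LOI(+). LOI(+) 2 lay below 2 of the LOI(-) mice, and the difference was 0.21 ± 0.14. Cks2, an adaptor of the same kinases, differed by 0.23 ± 0.16, Ccnb2, cyclin B2, by 0.16 ± 0.17 and Cks1b by 0.16 ± 0.13.

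All 7 measured genes of the checkpoint and of anaphase onset had a higher mean in LOI(+), with a median difference of 0.21, and 1 of them reached an unadjusted p of 0.05. That gene was Ube2c, at 0.19, 0.098 and 0.33 in LOI(-) and at 0.31, 0.45 and 0.61 in LOI(+). Only LOI(-) 3 overlapped with the LOI(+) mice. The difference of Ube2c was 0.25 ± 0.097, a fold of 1.19, with an adjusted p of 0.804 in limma. It was 0.13 with the mean over both Ube2c probes.

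Bub1, Bub3 and Bub1b belong to the checkpoint complexes that form on unattached kinetochores. Bub1, a kinase, was at -1.49, -1.45 and -1.17 in LOI(-) and at -1.35, -0.98 and -0.83 in LOI(+), a difference of 0.32 ± 0.15. Bub3, its binding partner, was at -0.16, -0.17 and 0.017 in LOI(-) and at 0.019, 0.0085 and 0.14 in LOI(+), a difference of 0.16 ± 0.075. In both genes the mouse LOI(-) 3 lay above at least 1 LOI(+) mouse. Bub1b, the inhibitor of the anaphase-promoting complex known as BUBR1, was at -0.41, -0.40 and -0.26 in LOI(-) and at -0.47, -0.21 and -0.30 in LOI(+). Its groups covered almost the same range, and its difference of 0.031 ± 0.084 was the smallest of this group. Whether Bub1 and Bub1b differ in their response was not tested.

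Mad2l1, the MAD2 protein that binds CDC20, differed by 0.31 ± 0.18, Ttk, the MPS1 kinase at the top of the checkpoint, by 0.21 ± 0.12, and Cdc20, the activator of the anaphase-promoting complex, by 0.13 ± 0.11. Each of these 3 intervals included 0.

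Of 5 measured genes of the kinetochore and centromere, 4 had a higher mean in LOI(+), with a median difference of 0.22, and 2 reached an unadjusted p of 0.05. Nuf2, a subunit of the NDC80 complex that grips microtubules, was at -1.11, -1.16 and -0.87 in LOI(-) and at -0.89, -0.65 and -0.68 in LOI(+). LOI(-) 3 lay just above LOI(+) 1 and kept the groups from separating. The difference of Nuf2 was 0.31 ± 0.10, a fold of 1.24, with an adjusted p of 0.801 in limma.

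Ndc80, the subunit of the same complex that pairs with NUF2, went with it in neither size nor sign. Its ratios were -0.57, -0.42 and -0.57 in LOI(-) and -0.18, -0.59 and -0.94 in LOI(+), so its LOI(+) mice were the most scattered of any group in this set of 5 and held both the highest and the lowest value. The difference was -0.048 ± 0.18, with a 95% interval from -0.46 to 0.37, which leaves room for a difference like that of Nuf2. Spc25, another subunit, differed by 0.11 ± 0.13. The order of the mice in Ndc80, with LOI(+) 1 highest and LOI(+) 3 lowest, was the reverse of that in most of the 36 genes.

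Birc5, survivin, the subunit that brings the chromosomal passenger complex to the centromere, had the largest difference of all 36 genes. It was at -0.48, -0.76 and -0.047 in LOI(-) and at -0.17, 0.57 and 0.18 in LOI(+), and LOI(+) 1 lay below LOI(-) 3. Birc5 differed by 0.62 ± 0.23, a fold of 1.53 (adjusted p = 0.804, limma). Its SE was also the largest among the genes named, and its 95% interval ran from 0.073 to 1.16.

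Cenpe, the kinesin that carries chromosomes to the spindle equator, was at -0.67, -0.69 and -0.41 in LOI(-) and at -0.58, -0.39 and -0.14 in LOI(+), a difference of 0.22 ± 0.13. Cenpa, the histone H3 variant that marks the centromere, was at -1.05, -1.17 and -0.75 in LOI(-) and at -1.07, -0.83 and -0.60 in LOI(+), a difference of 0.15 ± 0.15. Without LOI(+) 3 the differences were 0.10 for Cenpe and 0.038 for Cenpa, and without LOI(-) 2 Cenpa was at 0.063. In both genes the groups overlapped, and in both LOI(-) 2 was the lowest mouse and LOI(+) 3 the highest.

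All 7 measured spindle genes had a higher mean in LOI(+), with a median difference of 0.17, and 3 reached an unadjusted p of 0.05. The median was 0.065 with the mean over all probes of a gene. Haus1, a subunit of augmin, the complex that lets microtubules branch inside the spindle, had the smallest p of the 36 genes. Its ratios were -0.89, -1.14 and -0.74 in LOI(-) and -0.36, -0.28 and -0.39 in LOI(+). The gap between the highest LOI(-) mouse and the lowest LOI(+) mouse was wider than the whole spread of the LOI(+) group. The group means of Haus1 were -0.92 ± 0.20 (SD, n = 3) and -0.35 ± 0.057 (SD, n = 3). Haus1 differed by 0.58 ± 0.10 (SE), a fold of 1.49, with a 95% interval from 0.33 to 0.82 (adjusted p = 0.801, limma). Leaving out 1 mouse at a time gave 0.47 to 0.67.

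Tpx2, which activates Aurora A and nucleates microtubules near chromosomes, was at -1.06, -1.30 and -0.97 in LOI(-) and at -0.90, -0.65 and -0.77 in LOI(+). The groups did not overlap, although LOI(-) 3 and LOI(+) 1 lay close together. With 3 mice against 3, an exact permutation test of 1 gene, two-sided, cannot go below p = 0.1, so it could not separate Haus1 or Tpx2 further. The difference of Tpx2 was 0.34 ± 0.10, a fold of 1.27, with an adjusted p of 0.801 in limma. Stmn1, stathmin, which destabilises microtubules and is switched off in mitosis by phosphorylation, was at -0.29, -0.35 and 0.13 in LOI(-) and at 0.082, 0.12 and 0.25 in LOI(+). Here LOI(-) 3 was higher than 2 of the LOI(+) mice, and Stmn1 differed by 0.32 ± 0.13 (adjusted p = 0.804, limma).

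Hmmr, a spindle-associated receptor of hyaluronan, was at -0.59, -0.42 and -0.25 in LOI(-) and at -0.38, -0.32 and -0.46 in LOI(+), a difference of 0.029 ± 0.093. Its LOI(+) mice all lay inside the range of the LOI(-) mice, and its Cy3 signal was 463.4 to 483.4. Kif22, a chromosome-bound kinesin, differed by 0.17 ± 0.11, Nusap1, which bundles spindle microtubules, by 0.065 ± 0.17 and Kif2c, a kinesin that takes microtubules apart at the centromere, by 0.059 ± 0.064. In Kif22 the highest of all 6 mice was LOI(-) 3.

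Only 2 of the 6 listed condensin and chromosome genes were measured, and both differed by about 0.10. Ncapd2, a subunit of condensin I, was at -0.26, -0.42 and -0.14 in LOI(-) and at -0.23, -0.17 and -0.12 in LOI(+), a difference of 0.099 ± 0.082. Ncaph, the subunit that bridges the SMC heads of condensin I, was at -0.69, -0.47 and -0.41 in LOI(-) and at -0.56, -0.30 and -0.39 in LOI(+), a difference of 0.11 ± 0.10. The groups overlapped in both. Ncapd2 was at 0.025 without LOI(-) 2 and 0.17 without LOI(-) 3. Ncaph was at 0.022 without LOI(-) 1, 0.046 without LOI(+) 2 and 0.18 without LOI(+) 1.

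All 5 measured genes of cytokinesis lay below the reference on all 6 arrays, and all 5 had a higher mean in LOI(+), with a median difference of 0.19 and none at an unadjusted p under 0.05. Anln, anillin, the scaffold of the contractile ring, was at -1.64, -1.85 and -1.52 in LOI(-) and at -1.70, -1.36 and -1.26 in LOI(+), a difference of 0.23 ± 0.13. Racgap1, a subunit of centralspindlin, was at -1.20, -1.54 and -1.10 in LOI(-) and at -1.10, -1.20 and -0.86 in LOI(+), a difference of 0.23 ± 0.14. In Anln LOI(+) 1 was the second lowest mouse, and in Racgap1 LOI(-) 2 alone stood low. Without LOI(-) 2 the difference was 0.14 for Anln and 0.094 for Racgap1, and without LOI(+) 3 it was 0.14 for Anln and 0.13 for Racgap1.

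Prc1, which bundles the microtubules of the spindle midzone, was at -0.78, -0.84 and -0.39 in LOI(-) and at -0.59, -0.60 and -0.26 in LOI(+), a difference of 0.19 ± 0.14. Ect2, the exchange factor that activates RhoA for the contractile ring, was at -0.49, -0.64 and -0.31 in LOI(-) and at -0.68, -0.49 and -0.039 in LOI(+), a difference of 0.076 ± 0.17. The lowest and the highest of all 6 Ect2 values were both from LOI(+) mice. Without LOI(+) 3 Prc1 was at 0.072 and Ect2 at -0.11, and without LOI(-) 2 Prc1 was at 0.10. Kif20a, a kinesin of the midzone, differed by 0.11 ± 0.16.

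**Figure D2:**
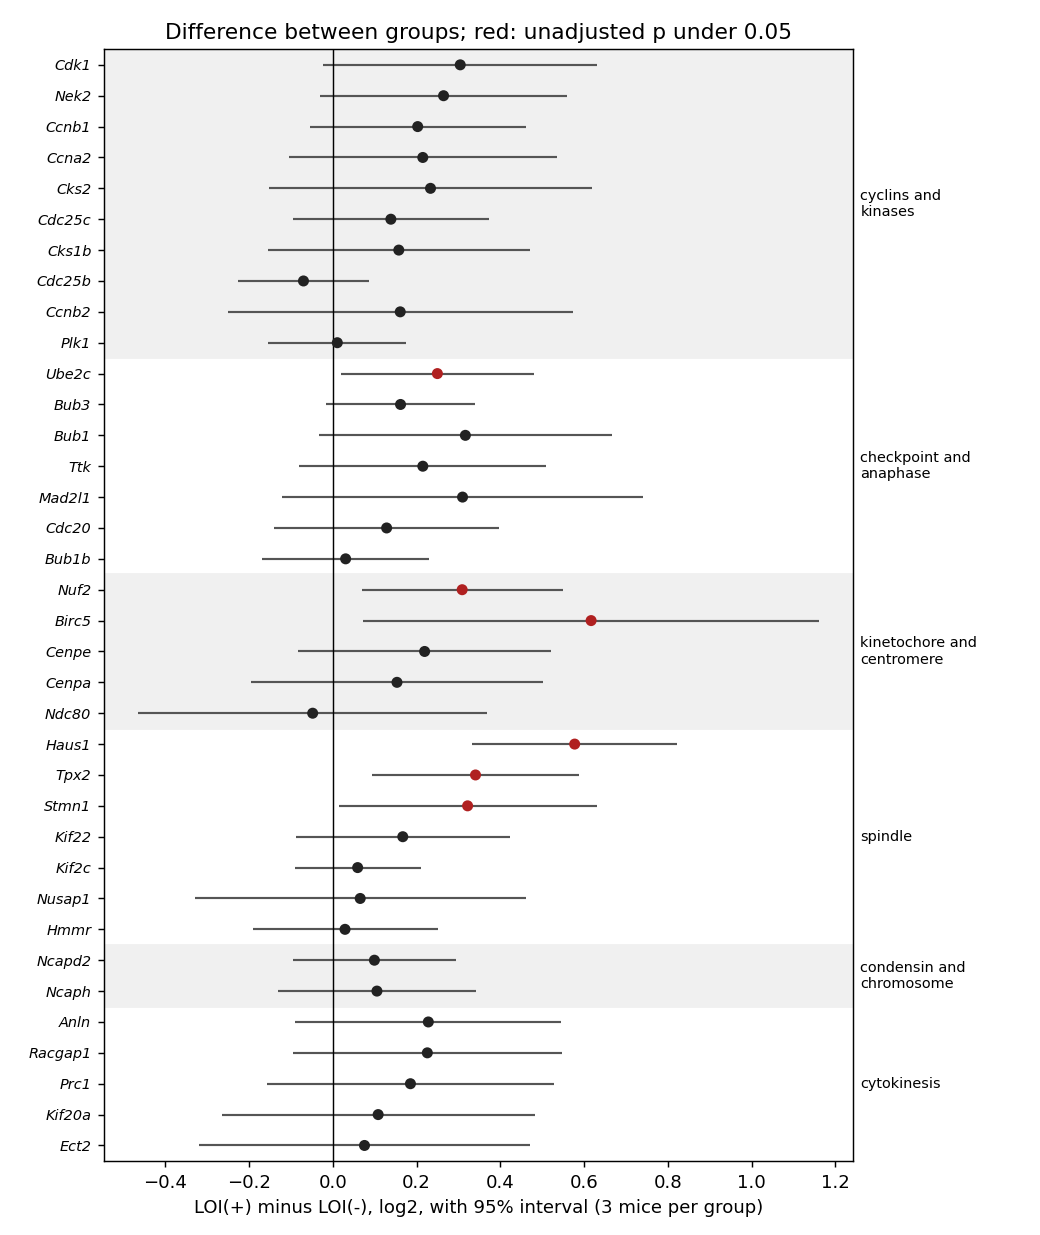
Difference LOI(+) minus LOI(-) in log2 units (x axis) with its 95% interval from limma for each of the 36 genes, 3 mice per group, with red points for an unadjusted p under 0.05. The points run from -0.070 to 0.62, and 30 of the 36 intervals include 0.

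The median SE of a difference was 0.13 for these genes and 0.077 over all genes and unnamed probes. The 95% interval included 0 for 30 of the 36 genes, and its upper bound was under 1, a fold of 2, for 35 of them, the exception being Birc5. The median upper bound was 0.49. By signal, the 18 genes of higher Cy3 had a median difference of 0.23 with 0 lower in LOI(+), and the 18 of lower signal 0.12 with 2 lower, Cdc25b and Ndc80. Whether signal and difference are related was not tested.

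The same mice were high or low across most of the genes. The values of each gene were centred on its mean over the 6 arrays, and the median over the 36 genes was -0.13, -0.26 and 0.073 for LOI(-) 1, 2 and 3 and -0.069, 0.12 and 0.24 for LOI(+) 1, 2 and 3. Over all genes and unnamed probes these medians lay between -0.017 and 0.0071, held near 0 by the normalization within each array. The groups thus overlapped as a set, with LOI(-) 3 above LOI(+) 1. LOI(-) 2 held the lowest of the 6 values in 26 of the 36 genes. LOI(+) 3 held the highest in 20 genes and LOI(+) 2 in 10. LOI(-) 3 was the highest of its group in 32 genes, and LOI(+) 1 the lowest of its group in 28. The spread within groups was wider than usual, with a median SD of 0.19 for the 36 genes. It was 0.096 for all genes and unnamed probes and 0.11 for the 12362 named genes. The 36 genes were also brighter, with a median Cy3 signal of 943 against array medians of 552 to 602.7. Neither this spread nor the SE was compared at like signal.

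**Figure D3:**
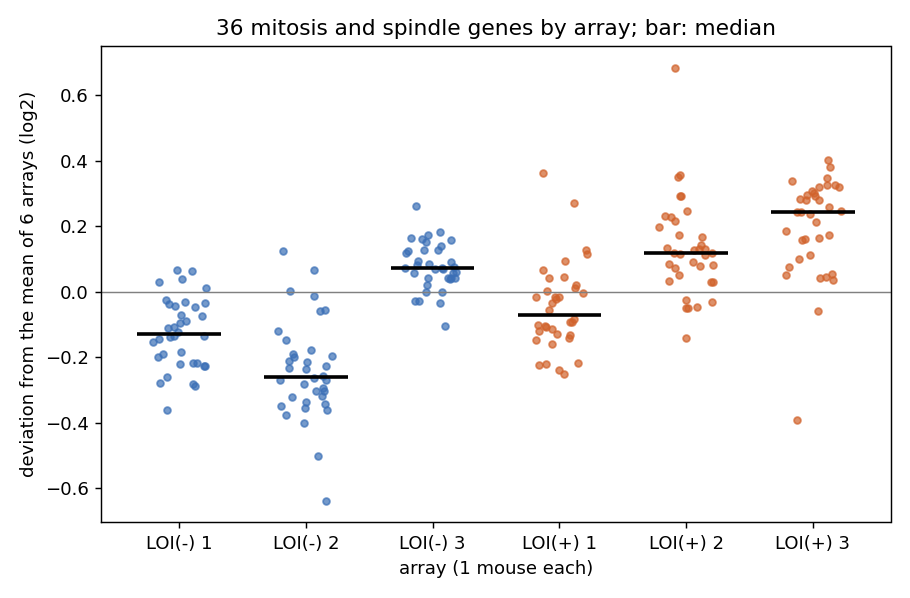
Deviation of each of the 36 genes from its own mean over the 6 arrays (y axis, log2) for each array (x axis, 1 mouse each), 1 point per gene, with a bar at the median. The bars run from -0.26 in LOI(-) 2 to 0.24 in LOI(+) 3, with LOI(-) 3 at 0.073 above LOI(+) 1 at -0.069.

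Without LOI(-) 3 or without LOI(+) 1, the groups did not overlap in 18 and in 20 of the 36 genes, in place of 2. Of these, 18 were higher in LOI(+) without LOI(-) 3, where 13.3% of all genes and unnamed probes were, and 19 without LOI(+) 1, where 14.8% were. Without LOI(-) 1 there were 3 higher and 1 lower, against 12.1% and 10.3% of all genes and unnamed probes. Without LOI(+) 3 there were 2 higher and 1 lower, against 12% and 10%. Leaving out LOI(+) 2 gave 4 higher (9.23%) and leaving out LOI(-) 2 gave 2 higher (9.72%), with 0 lower (8.55% and 10.4%). With 3 mice against 2, groups separate more easily than with 3 against 3. The lists of other genes show what moved with these mice. For DNA replication, 40 of 43 measured genes were higher in LOI(+), with a median difference of 0.26, and their array medians were -0.19, -0.24 and 0.027 in LOI(-) and 0.058, 0.21 and 0.17 in LOI(+). The summed Cy3 signal of that list was 44598 to 55275 in LOI(-) and 59759 to 67895 in LOI(+). Summed signals, here and below, are without background correction or normalization, so array brightness and the brightest genes weigh most in them. In the medians LOI(-) 2 was the lowest mouse and LOI(-) 3 the highest of its group there too, but the groups did not overlap.

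Markers of differentiated cells and of position along the gut were read in the same arrays. Of 18 villus enterocyte markers 13 were higher in LOI(+), with a median difference of 0.23. Their summed Cy3 signal was 50334 to 54015 in LOI(-) and 55354 to 81726 in LOI(+). Fabp2 alone gave 19084 to 35318 of these sums over the 6 arrays. All 18 lay above the negative controls on every array, as did 94% to 95.7% of all features per array. The list for the upper small intestine shares genes with the villus list, among them Fabp1 and Slc2a5, so it is not a separate reading. Of its 11 genes 8 were higher, with summed signals of 17640 to 24536 and 23698 to 39581. In the list for the lower small intestine 1 of 10 was higher, with summed signals of 11715 to 17792 and 11749 to 15027. Of 9 Paneth cell markers 2 were higher and of 14 goblet cell markers 2, with median differences of -0.16 and -0.086. Of 14 crypt stem cell markers 10 were higher, with a median of 0.11. Fibroblast and matrix markers were lower for 11 of 14, with a median of -0.12 and summed signals of 8750 to 11758 in LOI(-) and 9092 to 10426 in LOI(+). Smooth muscle markers were lower for 8 of 11, with a median of -0.10 and summed signals of 10278 to 12018 and 10481 to 11724. The part of these lists in the difference of the mitosis genes was not tested. Arrays of LOI(-) were extracted before those of LOI(+), and that order and the group cannot be told apart.

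Several genes had more than 1 probe, which gave a second reading within the same mice. Of 15 genes with 16 further probes, 9 further probes differed in the same direction as the brightest and 7 in the other. The median difference was 0.22 for the brightest probes and 0.0028 for the further ones. All 7 further probes of the other direction were dim, with mean Cy3 signals of 476.4 to 616.9. Those of the 9 in the same direction were 507.8 to 3931. Whether signal accounts for the disagreement was not tested. The 60-base probes of 3 genes are shown, because Ttk and Ccnb2 gave like differences with both probes and Bub1 did not. Within each pair the probes have no more than 7 bases in a row in common, so they read separate stretches of the transcript.
Ttk, brightest probe: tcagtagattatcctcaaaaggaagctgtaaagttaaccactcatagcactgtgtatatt
Ttk, further probe: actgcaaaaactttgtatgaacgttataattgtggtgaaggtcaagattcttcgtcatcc
Ccnb2, brightest probe: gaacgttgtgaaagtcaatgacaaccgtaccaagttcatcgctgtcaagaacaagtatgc
Ccnb2, further probe: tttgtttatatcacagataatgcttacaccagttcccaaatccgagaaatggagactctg
Bub1, brightest probe: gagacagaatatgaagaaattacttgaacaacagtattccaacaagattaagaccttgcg
Bub1, further probe: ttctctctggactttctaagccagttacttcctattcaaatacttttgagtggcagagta

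The Ttk probes differed by 0.21 ± 0.12 and 0.21 ± 0.12, and the Ccnb2 probes by 0.16 ± 0.17 and 0.19 ± 0.16. The Bub1 probes gave 0.32 ± 0.15 and 0.033 ± 0.14, with mean Cy3 signals of 609.7 and 507.8. For Cdk1 the brightest probe gave 0.30 ± 0.14 and the further probe -0.013 ± 0.088, with Cy3 signals of 2788 and 512.4. The further Cdk1 probe also had a mean ratio to the reference of 0.065, where the brightest had -0.79. In Ube2c, whose further probe had a Cy3 signal of 1713, the differences were 0.25 ± 0.097 and 0.017 ± 0.15. The further Haus1 probe gave 0.61 ± 0.14, but it shares a run of 40 bases with the brightest and is not a separate reading. Likewise both Racgap1 probes share 44 bases and gave 0.23 ± 0.14 and 0.25 ± 0.13. Over all 16 further probes, 4 lay on the other side of the reference from the brightest.

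**Figure D4:**
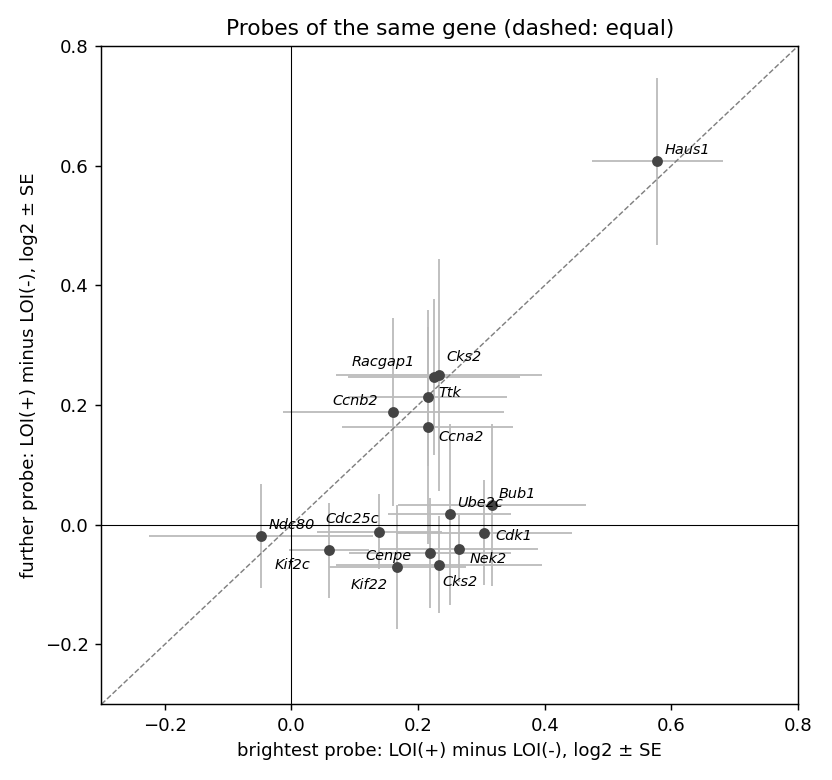
Difference LOI(+) minus LOI(-) of the brightest probe of a gene (x axis, log2) against that of each further probe (y axis, log2), with bars of 1 SE, for 15 genes and 16 further probes (Cks2 has 2). Haus1, Racgap1, Ttk, Ccnb2, Ccna2 and 1 Cks2 probe lie near the dashed line of equal values, and the others lie near 0 on the y axis.

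Other genes of mitosis were read from a list of 150, of which 94 were measured. Their median difference was 0.11, with 73 higher and 21 lower in LOI(+), and none passed an adjusted p of 0.05 in limma. The median was 0.074 without LOI(-) 2, 0.17 without LOI(-) 3 and 0.053 with no background correction. At an unadjusted p under 0.05, 17 were higher (3.92% of all genes and unnamed probes) and 2 lower (2.23%). The groups did not overlap in 11 that were higher (6.42%) and in 3 that were lower (5.03%). Against the reference, 62 of the 94 lay below it on all 6 arrays (30.1% of all).

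Among regulators of mitotic entry, 9 of 10 had a higher mean in LOI(+). Foxm1, the transcription factor of the late cell cycle program, was at -0.18, -0.16 and 0.0073 in LOI(-) and at 0.078, 0.13 and 0.11 in LOI(+), with no overlap and a difference of 0.22 ± 0.067. Plk4, the kinase of centriole duplication, differed by 0.38 ± 0.12 and Pbk, a mitotic kinase, by 0.52 ± 0.21. The groups overlapped in both Plk4 and Pbk.

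Of 24 measured genes of the anaphase-promoting complex, the checkpoint and cohesin, 19 had a higher mean, with a median of 0.12. Smc3, a core subunit of cohesin, the ring that holds sister chromatids together, differed by 0.52 ± 0.17 with no overlap. Fzr1, the CDH1 activator of the anaphase-promoting complex, differed by 0.19 ± 0.078 and Zwilch, a checkpoint protein of the outer kinetochore, by 0.32 ± 0.13. Of 21 kinetochore and centromere genes 15 were higher. Among them were Cenph at 0.45 ± 0.13 and Dsn1 at 0.38 ± 0.12, subunits of the inner kinetochore and of the MIS12 complex. The Dsn1 probe had a Cy3 signal of 458.7 to 515.6, near the negative controls, and its groups overlapped.

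Of 24 spindle and centrosome genes 18 were higher, with a median of 0.080. Tubgcp2, a subunit of the gamma-tubulin complex that nucleates microtubules, was at -0.97, -1.31 and -0.86 in LOI(-) and at -0.47, -0.39 and -0.54 in LOI(+), a difference of 0.58 ± 0.12. Haus4, another augmin subunit, was at -0.36, -0.40 and -0.18 in LOI(-) and at -0.031, -0.021 and 0.055 in LOI(+), a difference of 0.31 ± 0.074. In both the groups did not overlap, as in Haus1. Rcc1, the exchange factor that makes RanGTP around chromosomes, differed by 0.40 ± 0.092 and did not overlap either. The other measured augmin subunits, named after their values were seen, differed by 0.19 ± 0.11 (Haus3), 0.12 ± 0.074 (Haus7) and 0.15 ± 0.055 (Haus8). The other measured genes of the gamma-tubulin complex, likewise named afterwards, did not share the value of Tubgcp2: Tubg1 was at 0.028 ± 0.078, Tubgcp4 at 0.066 ± 0.085 and Tubgcp5 at 0.0036 ± 0.073.

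All 7 other condensin and chromosome genes were higher, with a median of 0.070, and 1 reached an unadjusted p of 0.05, the condensin II subunit Ncapg2 at 0.28 ± 0.089. Ncapd3, another condensin II subunit, was at 0.11 ± 0.17, and Cdca3, a mitotic entry factor, at 0.37 ± 0.16. Of 8 other genes listed under cytokinesis 5 were higher. Chmp4b, the ESCRT-III subunit that cuts the bridge between daughter cells and also acts in membrane sorting in cells that do not divide, was at -0.43, 0.098 and -0.051 in LOI(-) and at -0.67, -0.73 and -0.69 in LOI(+). It was lower by -0.57 ± 0.13 with no overlap, opposite to most of the genes. Mtbp, whose place in this list was not checked, differed by 0.29 ± 0.067 and Arhgap11a, a regulator of RhoA, by 0.16 ± 0.095.

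**Figure D5:**
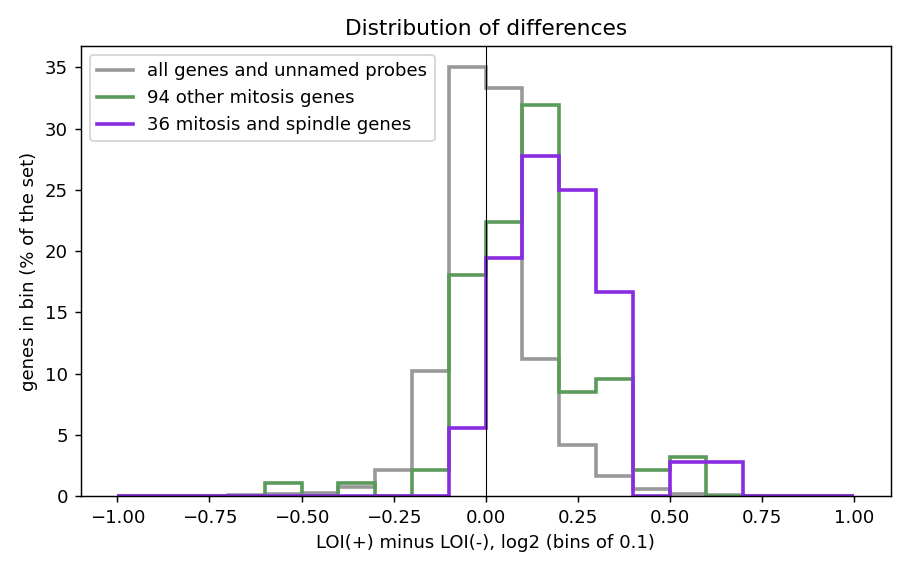
Share of genes (y axis, % of the set) in bins of the difference LOI(+) minus LOI(-) (x axis, log2) for the 36 mitosis and spindle genes, the 94 other mitosis genes and all 37939 genes and unnamed probes. The medians are 0.18, 0.11 and 0.0027, and the sets overlap over most of their range.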

How the data were processed

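Crypt RNA of 6 mice (Cy3) was hybridised against reference RNA (Cy5). Each array held a separate mouse, going by the identifiers in the labels. The authors deposited spot intensity values for Cy3 and Cy5, not pooled over mice, which Agilent Feature Extraction made according to the submitters' processing notes and, per the file headers, measured with local backgrounds. A second deposited table, in log10 units, served as an alternative and followed log10 Cy3 minus log10 Cy5 plus the mean log10 Cy5, with r between 0.998 and 1.00 per array and column medians of 2.899 to 2.905. The sources used here do not give the authors' test of the groups.

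Mean signals were corrected with normexp (offset 50) and normalized by loess within arrays in limma 3.58.1 (R 4.3.3), with control features at weight 0 and features marked as outliers left out. Of 41006 probes, 15429 (37.6%) were paired with 12362 symbols through the RefSeq gene table of GRCm38.p6, and each gene was read from its probe of highest mean Cy3. Groups were compared with lmFit and eBayes, adjusted by Benjamini-Hochberg over 37939 genes and unnamed probes at 0.05, with two-sided tests. Precision is limited by the number of arrays. The fit was first tested on simulated data.

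The genes, lists and motifs were chosen with earlier results of these data known. Named were, per role, the 3 genes of smallest and the 1 of largest p, 10 core genes where measured, and the 3 of smallest p in each list of other mitosis genes. Further genes were named after their values were seen. A result that this rule would name is not reported here.

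Alternatives covered background correction, offset, normalization, the Cy3 channel alone, the deposited table, dim and saturated probes, the mean over probes, array weights, a replicate block, the mice labelled male and leaving out each mouse.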

Additional observations from a re-analysis of the deposited data

How the results depend on the processing

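Of 771 values recomputed under the alternatives, 614 kept their sign within 1.5 times of the value reported, 140 kept it but moved by more, and 17 reversed. Some of the 614 were fixed in advance. The runs without dim or without saturated probes removed none of the 36 genes, so their differences could not move. The deposited table nearly repeated Agilent's processed signals, with median differences of 0.1845 and 0.1847. Of the 23 named genes, 21 moved by over 1.5 times under some alternative, and 15 did so when some mouse was left out. No gene of the 36, and none of all genes, passed an adjusted p of 0.05 in limma under any alternative, with smallest adjusted p-values over all genes from 0.124 to 1.00 and 1496 to 3348 genes and unnamed probes at an unadjusted p under 0.05. The count of the 36 at an unadjusted p under 0.05, which was 6, ranged from 2 to 14 when each mouse was left out. It was 13 in the mice labelled male, where 1733 of 37938 genes and unnamed probes reached that p. The count whose groups did not overlap, which was 2, ranged from 2 to 20 when each mouse was left out. In those fits 9.23% to 14.8% of all genes and unnamed probes were higher without overlap and 8.55% to 11.6% lower. The count was 7 with median centring, 5 with Cy3 alone and 20 in the mice labelled male (2 against 2), all of them higher in LOI(+). The shares of all genes and unnamed probes that were higher without overlap were 5.23%, 5.75% and 17.5%. The median ratio to the reference, -0.49, was -0.30 with no background correction and -0.77 with median centring. It could not be given for Cy3 alone or the deposited table, which hold no ratio. The median difference ranged from 0.11 to 0.28 without each mouse and from 0.094 to 0.25 under the others.

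The difference of Plk1 reversed to -0.015 with Agilent's processed signals, -0.015 with the deposited table, -0.034 with median centring, -0.011 with Cy3 alone and -0.020 in the mice labelled male. That of Hmmr reversed to -0.015 with median centring and that of Ndc80 to 0.041 with Cy3 alone. When each mouse was left out, Plk1 ranged from -0.024 to 0.070, Hmmr from -0.055 to 0.11, Ndc80 from -0.24 to 0.14, Ect2 from -0.11 to 0.21, Ncapd2 from 0.025 to 0.17, Ncaph from 0.022 to 0.18, Cenpa from 0.038 to 0.27, Prc1 from 0.072 to 0.32 and Bub1b from -0.027 to 0.10. With no background correction Ccnb1 was at 0.057 and Bub1 at 0.11. The cause of these changes was not tested.

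Mice of the same replicate number were not treated as pairs. Their deviations correlated at -0.088, -0.25 and 0.35 across genes, which with 3 mice per group cannot decide whether the numbers pair them. With the replicate block, 14 of the 36 genes reached an unadjusted p of 0.05 in place of 6. Over all genes and unnamed probes it was 2461 of 37931, in place of 2333 of 37939. Signals near the negative controls limit the values of Plk1, Hmmr and Dsn1.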
